A study of Homo sapiens with 6 samples.

Results

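The imprinted gene KCNQ1 and 3 other imprinted genes, PLAGL1, UBE3A and BLCAP, were examined for H3K9me3, the trimethylation of histone H3 lysine 9 that marks repressed chromatin, in human fibroblasts. The members are all deposited peaks that overlap the body of any of the 4 genes or the 50 kb on each side of it. They number 10 of the 14087 peaks with PURPL guide 1, 4 of the 11721 with PURPL guide 2 and 18 of the 22627 with the control guide, on chromosomes 1 to 22 and X of hg38. The cells were BJ, an established line of human skin fibroblasts, and all carried CRISPR interference (CRISPRi), in which a guide RNA brings a transcriptional repressor to a gene. A pair of lines targeted PURPL, known as a p53-induced long non-coding RNA, with guide 1 in the first and guide 2 in the other, and the remaining line carried a control guide. The 6 samples are an input and an H3K9me3 library from each line. With 1 library per line, differences below could not be set against replicate spread, and no test is reported. Whether a line is a clone is not stated. A repressive mark gives no RNA level, so neither the knockdown of PURPL nor the fibroblast label could be checked in these peak lists.

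Imprinted genes are expressed from the maternal or the paternal copy only, in at least some tissues. The choice rests on imprinting control regions, stretches of DNA methylated on a single parental copy, where zinc finger proteins such as ZFP57 and ZNF445 recruit TRIM28 and the H3K9 methyltransferase SETDB1. KCNQ1 encodes a potassium channel subunit of heart and epithelia. The long antisense RNA KCNQ1OT1 starts inside an intron of KCNQ1, at the control region called KvDMR1, and on the paternal copy it silences neighbours such as CDKN1C and PHLDA2. The peaks below do not tell the parental copies apart.

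H3K9me3 peaks in KCNQ1 were concentrated inside KCNQ1OT1, and both PURPL guides had a shorter length under peaks there than the control guide. KCNQ1 (gene ID 3784, chromosome 11, 2445008 to 2849105) had 7541 bp under 9 peaks with guide 1, 1498 bp under 3 peaks with guide 2 and 17381 bp under 15 peaks with the control guide. The covered length was thus 43.4% of the control with guide 1 and 8.62% with guide 2. No list had a peak in the 50 kb on either side of the gene. The lists differ as wholes in the same direction, with 17.0 Mb under peaks with guide 1, 13.1 Mb with guide 2 and 32.3 Mb with the control guide. As a share of the gene, peaks covered 1.87% with guide 1, 0.371% with guide 2 and 4.30% with the control guide. The direction with guide 1 depends on how many peaks enter each list. When each list was cut to its 11721 highest-scoring peaks, KCNQ1 had 4528 bp with guide 1, 1498 bp with guide 2 and 2580 bp with the control guide, 176% and 58.1% of the control. Sequencing depth is unknown from these lists, and its part in the difference was not tested.

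KCNQ1OT1 (chromosome 11, 2608328 to 2699994) takes up 22.7% of the length of KCNQ1. All 9 guide 1 peaks, all 3 guide 2 peaks and 9 of the 15 control peaks of KCNQ1 lay in it. It held 100% of the covered length of KCNQ1 with guide 1 and with guide 2, and 86.3% with the control guide. Inside KCNQ1OT1, guide 1 left 50.2% and guide 2 left 9.98% of the 15008 bp under control peaks. At equal list sizes these shares were 290% and 95.9%, of 1562 bp under control peaks, and at scores of 22 or more they were 63.9% and 0%. The 163 kb of KCNQ1 below KCNQ1OT1 had 0 peaks with guide 1, 0 with guide 2 and 1 with the control guide, at 2599677 to 2600087. The 149 kb above it had 0 with guide 1, 0 with guide 2 and 5 small control peaks with 1962 bp in all. These 6 control peaks outside the antisense transcript were 272 to 607 bp wide.

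**Figure D1:**
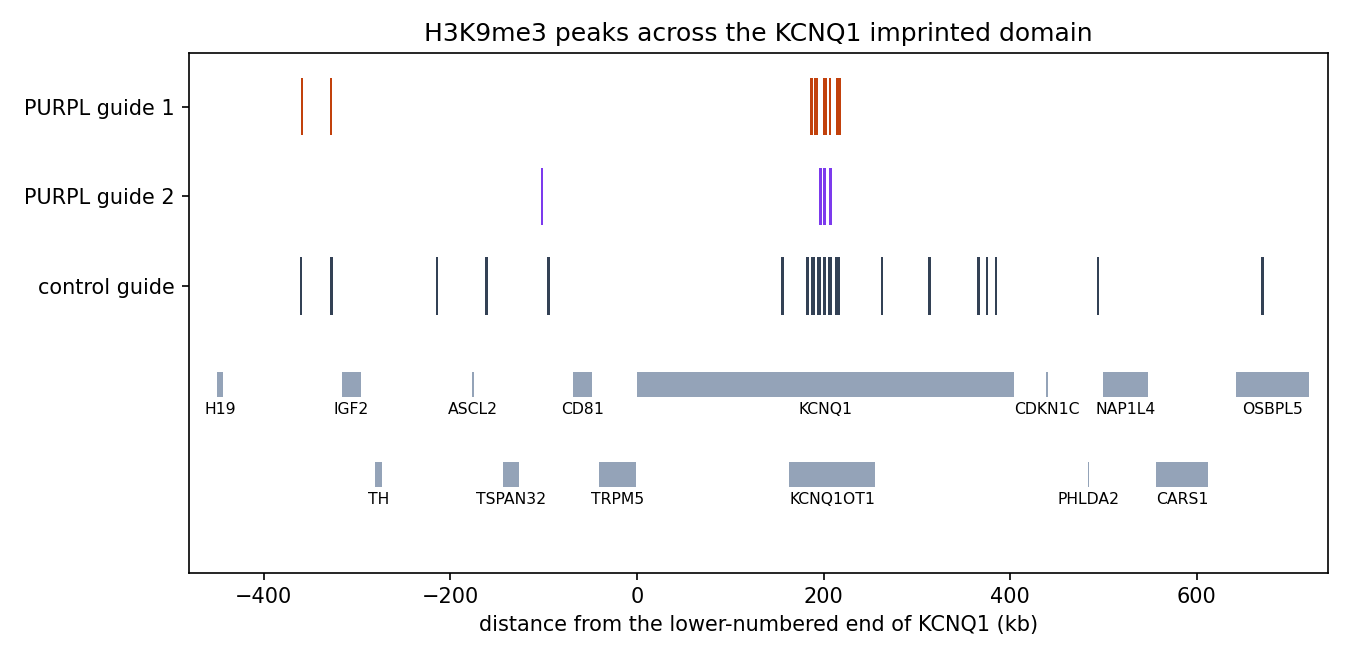
Peaks of each list (coloured bars, narrow peaks widened to stay visible) along the domain from H19 to OSBPL5, with gene bodies in grey; the horizontal axis is the distance in kb from the lower-numbered end of KCNQ1. The peaks of both guides in KCNQ1 sit over KCNQ1OT1, while 6 of the 15 control peaks lie elsewhere in KCNQ1.

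Within KCNQ1OT1 the peaks of each list lay in the middle part of the transcript, in a stretch called the cluster here. It ran from 2630465 to 2661845 with guide 1 (31.4 kb), from 2640353 to 2651676 with guide 2 (11.3 kb) and from 2626514 to 2661124 with the control guide (34.6 kb). Peaks covered 24.0% of that span with guide 1, 13.2% with guide 2 and 43.4% with the control guide. The widest gap between neighbouring peaks was 6983 bp with guide 1, 5665 bp with guide 2 and 4069 bp with the control guide. Guide 1 and the control guide thus had the same number of peaks, 9 each, over nearly the same stretch, and differed in peak width. The median width was 642 bp with guide 1 and 1034 bp with the control guide, against 629 bp for the 3 peaks of guide 2. The widest peak measured 2162 bp with guide 1 (2650642 to 2652803), 649 bp with guide 2 (2644734 to 2645382) and 4294 bp with the control guide (2649604 to 2653897). Each of the widest guide peaks lay inside a control peak.

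The 5′ end of KCNQ1OT1, which by the usual annotation is its higher-numbered end and lies at KvDMR1, carried no peak in any list. The nearest peak was 38.1 kb away with guide 1, 48.3 kb with guide 2 and 6.37 kb with the control guide. The last of these is a control peak outside the transcript, at 2706363 to 2706761, with a score of 13. The cluster therefore lies well inside the transcribed stretch, 38.1, 48.3 and 38.9 kb from that end with guide 1, guide 2 and the control guide.

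**Figure D2:**
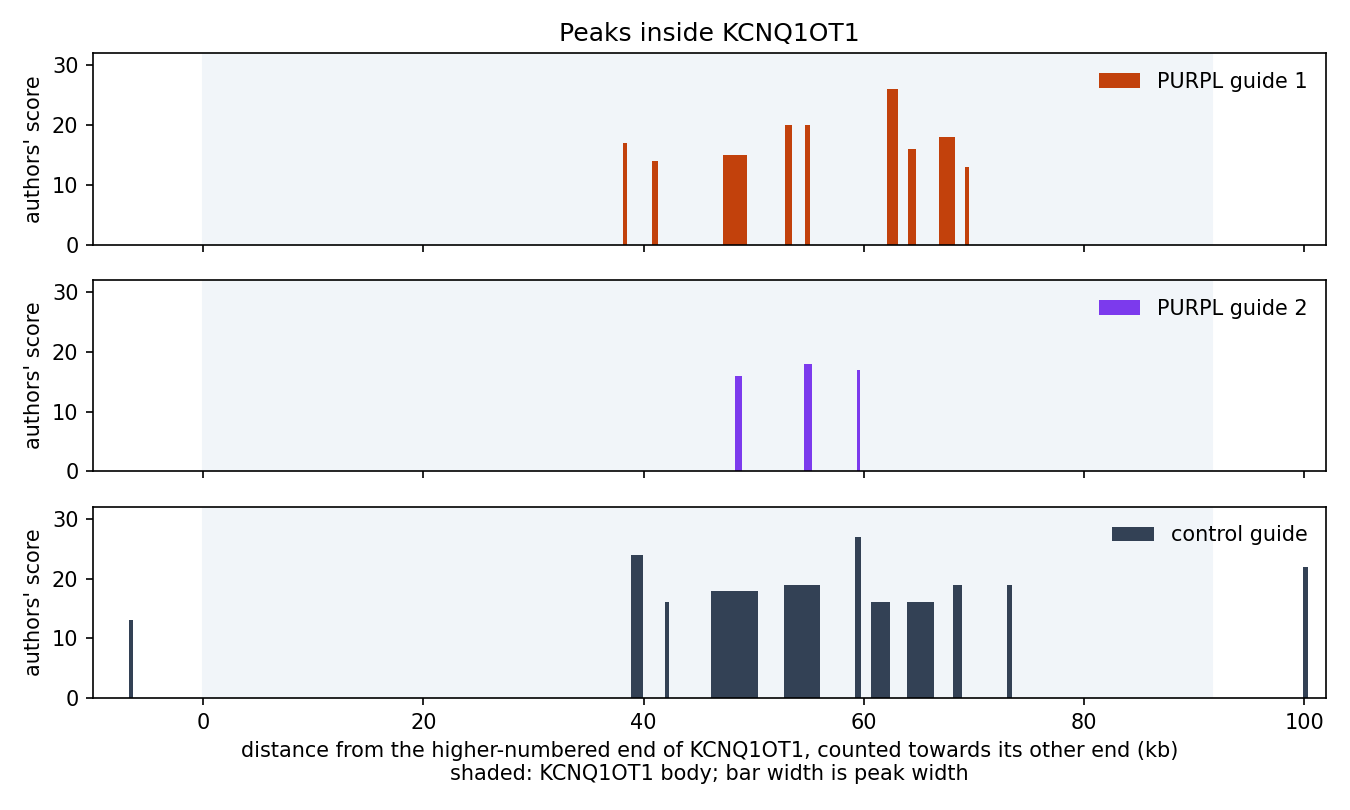
Each bar is a peak, with the authors' score as its height and the peak width as its width (at least a thin line); the horizontal axis is the distance in kb from the higher-numbered end of KCNQ1OT1, whose body is shaded. The 9 guide 1 peaks and 3 guide 2 peaks fall in the stretch that holds the 9 control peaks, except the guide 1 peak at 2661539 to 2661845 just beyond it. The guide peaks are narrower at the widest control peaks.

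The bases under peaks were only partly the same. Of the guide 1 bases in KCNQ1, 59.2% were also under control peaks, and 3073 bp were not. Of the guide 2 bases, 100% were under control peaks. Guide 1 had 3 peaks with no control peak beneath them, at 2630465 to 2630764, 2658714 to 2659264 and 2661539 to 2661845, all inside the cluster or at its edge. The 3 lists had 1100 bp in common, in 2 runs of 471 bp (2644836 to 2645306) and 629 bp (2651048 to 2651676), which lie in the widest control peaks. A further 12515 bp were under control peaks alone.

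Counted by peaks, guide 1 peaks shared at least 1 bp with 5 of the 15 control peaks of KCNQ1 (33.3%, 95% Wilson interval 15.2 to 58.3), and guide 2 peaks with 3 of 15 (20.0%, 7.05 to 45.2). These intervals treat neighbouring peaks of 1 gene in 1 library as independent and cover counting error only. They cannot place KCNQ1 against other genes. Over all control peaks in protein-coding gene bodies the shares were 21.9% with guide 1 (1018 of 4645) and 11.3% with guide 2 (526 of 4645). All the overlapped control peaks were in KCNQ1OT1, and the 6 elsewhere in KCNQ1 had no peak of either guide on them. With at least 50% of the control peak required to be covered, 1 of 15 remained with guide 1 and 0 of 15 with guide 2.

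The scores of these peaks were low to middling in their own lists. The score is the authors' own whole number per peak, at least 10, on an unstated scale. In KCNQ1 it ran from 13 to 26 with guide 1, 16 to 18 with guide 2 and 13 to 27 with the control guide. The peak of median score exceeded 23.4% of its list with guide 1, 19.8% with guide 2 and 34.0% with the control guide. The highest-scoring control peak in the cluster, at 2640255 to 2640782, had a score of 27, above 65.4% of its list, and overlapped a guide 2 peak with a score of 17 but no guide 1 peak. At scores of 22 or more, the median of the 3 lists pooled, KCNQ1 kept 998 bp with guide 1, 0 bp with guide 2 and 2580 bp with the control guide.

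Around KCNQ1, the imprinted domain held few peaks. From H19, the maternally expressed RNA gene at one end, to OSBPL5, a sterol-binding protein gene at the other, the domain had 11 peaks with guide 1, 4 with guide 2 and 22 with the control guide over 1170 kb. Covered length was 8.28 kb with guide 1, 1.72 kb with guide 2 and 22.4 kb with the control guide, 37.0% and 7.69% of the control. Without KCNQ1 it was 0.739, 0.225 and 5.02 kb. KCNQ1 thus held most of the covered length of its domain in every list.

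The growth factor gene IGF2 and the neighbouring H19, INS and TH had 0 bases under peaks in their bodies in all 3 lists. Between H19 and IGF2, guide 1 had peaks at 2084737 to 2085015 and 2116187 to 2116646. The control guide had overlapping peaks there, at 2084156 to 2084778 and 2116592 to 2117440, and guide 2 had none. CDKN1C, which encodes a cyclin-dependent kinase inhibitor, PHLDA2, a growth-restraining placental gene, and ASCL2, a transcription factor gene of trophoblast, also had 0 in their bodies in all 3 lists. So did TSPAN32, CD81, TSSC4, TRPM5, the transporter gene SLC22A18, NAP1L4 and CARS1. OSBPL5 had a peak of 443 bp with the control guide, at 3114282 to 3114724, and 0 with both guides. Intergenic control peaks of 828 bp (2229644 to 2230471) and 698 bp (2282441 to 2283138) lay near ASCL2, and 1 of 925 bp (2937698 to 2938622) lay between PHLDA2 and NAP1L4. Inside CD81-AS1, the antisense gene beside CD81, guide 2 had a peak of 225 bp (2342075 to 2342299) and the control guide a peak of 653 bp (2349135 to 2349787), which do not overlap.

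Set beside other genes, KCNQ1 was among the longest covered in the control. Among genes with long control coverage, KCNQ1 kept a mid-range share of its control length, but a larger share than most without a zinc finger name. With 17381 bp it ranked 63 of the 297 protein-coding genes with at least 5000 bp under control peaks, and 14 of the 107 of them that do not carry a zinc finger gene name (ZNF, ZFP, ZSCAN or ZKSCAN). The share of control length left was 43.4% in KCNQ1 with guide 1, against a median of 39.2% over the 297 genes (quartiles 20.3 and 55.3). With guide 2 it was 8.62% in KCNQ1, against a median of 9.62% (quartiles 3.28 and 21.1). Among the 107 genes without a zinc finger name, 85 had a smaller share left than KCNQ1 with guide 1 and 79 with guide 2. Their medians were 18.8% with guide 1 (quartiles 9.54 and 34.9) and 4.11% with guide 2 (quartiles 0 and 8.8). Of the 107, 18 are protocadherin gamma (PCDHG) genes, whose bodies are nested at a single locus and share peaks, and all 18 were below KCNQ1 with both guides. With overlapping genes counted once, a step added after the data were seen, KCNQ1 ranked 5 of 89 by control length, 68 had a smaller share left with guide 1 and 62 with guide 2, and the medians were 19% and 3.42%. Among the 190 zinc finger genes, whose bodies are known to carry H3K9me3, 85 and 62 had a smaller share left, and the medians were 46.9% and 15.5%. KCNQ1 was chosen with such values known, so these ranks describe it and test nothing.

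**Figure D3:**
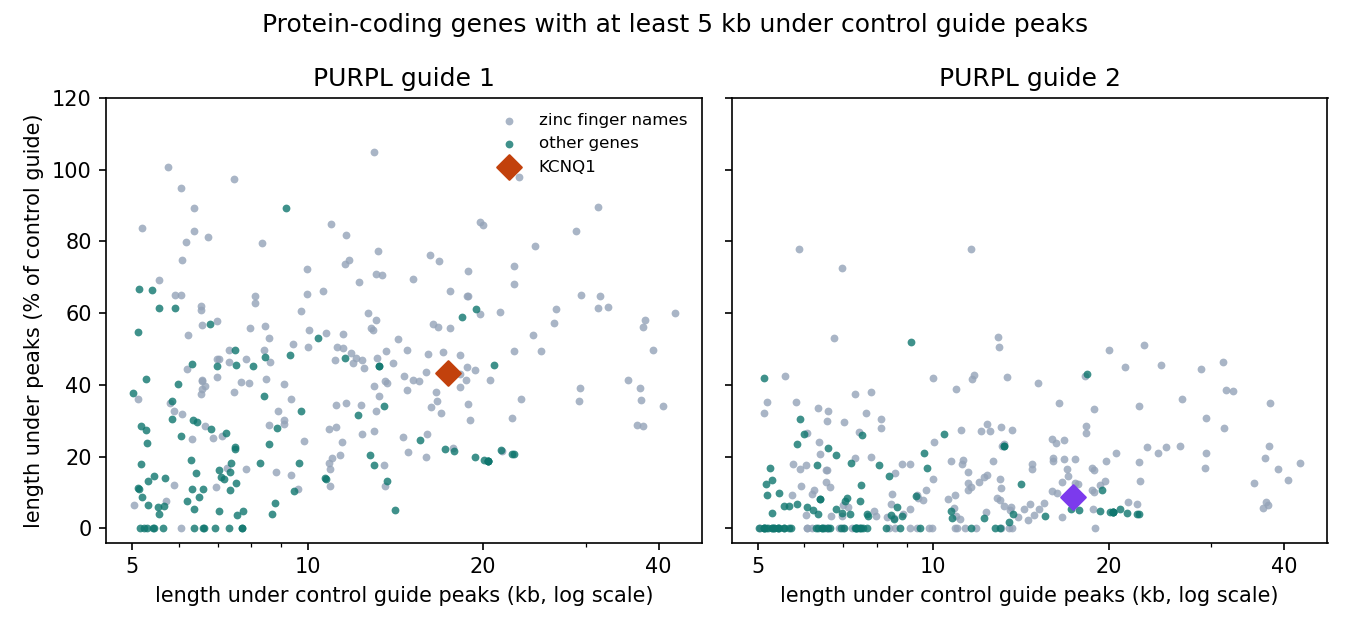
Each point is a protein-coding gene with at least 5 kb under control guide peaks; the horizontal axis is that length in kb on a log scale and the vertical axis the length under peaks of PURPL guide 1 (left) or guide 2 (right) as a percentage of it. KCNQ1, the diamond, lies at 43.4% with guide 1 and 8.62% with guide 2, above most genes without a zinc finger name.

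The 5 protein-coding genes outside the KCNQ1 window with covered lengths nearest to those of KCNQ1 were all zinc finger genes, by Euclidean distance of log10(bp + 1) over the 3 lists. Zinc finger names also made up 190 of the 297 protein-coding genes with at least 5000 bp under control peaks. The 5 nearest genes thus came from a pool rich in such names. These 5 were ZNF880 (distance 0.118), ZNF483 (0.127), ZNF568 (0.143), ZNF624 (0.167) and ZNF254 (0.174). ZNF880 had 6882 bp with guide 1, 1541 bp with guide 2 and 22390 bp with the control guide. ZNF483 had 7706, 1989 and 18685 bp in the same lists. ZNF568 had 5497 bp with guide 1, 1602 bp with guide 2 and 16295 bp with the control guide.

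Among genes of related function, KCNQ5, a channel gene of brain and muscle, had 0 bp with both guides and 3273 bp with the control guide. KCNE1, whose product partners KCNQ1 in the heart, had 0 bp with both guides and 1426 bp with the control guide.

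PLAGL1, a zinc finger transcription factor gene expressed from the paternal copy (gene ID 5325, chromosome 6, 143940300 to 144064599), had peaks in the control list alone. Its window held 0 peaks with guide 1, 0 with guide 2 and 2 with the control guide. The control peak in the body covered 947 bp, at 144044419 to 144045365, with a score of 16, above 22.6% of its list. The other, of 448 bp at 143931745 to 143932192, lay in the neighbouring gene ZC2HC1B. Neither is near the imprinted start of PLAGL1, which is shared with the RNA gene HYMAI. The nearest peak to that start was 193 kb away with guide 1, 325 kb with guide 2 and 36.2 kb with the control guide. The 250 bases before this start are shown because it is the methylated control region of the locus and held no peak (RefSeq, GRCh38.p14, chr6:144008260-144008509, minus strand, 5′ to 3′). Capitals mark TGCCGC, the letters ZFP57 is known to bind, or its reverse complement GCGGCA.

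HYMAI and PLAGL1 start: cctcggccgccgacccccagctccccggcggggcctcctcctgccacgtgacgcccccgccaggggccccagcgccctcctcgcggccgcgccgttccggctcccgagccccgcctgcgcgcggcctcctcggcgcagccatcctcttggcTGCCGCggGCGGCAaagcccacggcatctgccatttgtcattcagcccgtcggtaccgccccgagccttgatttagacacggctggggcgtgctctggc

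It holds 2 matches and 32 CG pairs, against a median of 11 CG pairs over the 35116 RefSeq promoter windows. At least 1 match was found in the same 250 bases of 12.7% of all those windows, searched on both strands. Peaks touched the 300 bases around the start in 27 of these windows with guide 1, 13 with guide 2 and 49 with the control guide, so peaks at starts were rare in all 3 lists. In the wider PLAGL1 neighbourhood, PHACTR2, an actin-binding protein gene, had 245 bp with guide 1, 227 bp with guide 2 and 1752 bp with the control guide. The guide 1 and guide 2 peaks there overlapped each other, at 143683056 to 143683300 and 143683017 to 143683243, where there was no control peak. LTV1, HYMAI, SF3B5 and STX11 had 0 in their bodies in all 3 lists.

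BLCAP, a small gene that reduces cell growth when overexpressed and is imprinted in brain (gene ID 10904, chromosome 20, 37517417 to 37527876), had a peak with each PURPL guide and none with the control guide. Guide 1 had 1 peak of 359 bp in the body, at 37527339 to 37527697, and guide 2 had 1 of 236 bp in the flank, at 37509721 to 37509956. These are 2 separate places, and both scores were low, 15 (above 11.8% of the guide 1 list) and 14 (above 5.59% of the guide 2 list). The nearest control peak to the BLCAP start lay 68.5 kb away, outside the window. NNAT, the paternally expressed gene within an intron of BLCAP, had 0 bases under peaks in all 3 lists. The guide 1 peak ends 179 bp inside the gene from its outermost start. The 250 bases before that start are shown because they lie wholly outside the annotated gene, next to the guide 1 peak (RefSeq, GRCh38.p14, chr20:37527877-37528126, minus strand, 5′ to 3′). No capitals appear, since TGCCGC and GCGGCA are not in this window, which holds 16 CG pairs. Another listed BLCAP start, at 37527732, lies nearer the peak, 0.035 kb from it, and 15 bp of the 300 bases around that start are under it. The 250 bases before that start hold 1 match and 26 CG pairs and are not printed.

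BLCAP start: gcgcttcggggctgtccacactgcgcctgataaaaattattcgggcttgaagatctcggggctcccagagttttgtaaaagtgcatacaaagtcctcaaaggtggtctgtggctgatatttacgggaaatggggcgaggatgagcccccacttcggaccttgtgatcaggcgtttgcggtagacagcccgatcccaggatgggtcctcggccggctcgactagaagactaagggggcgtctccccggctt

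UBE3A, the ubiquitin ligase gene of Angelman syndrome, which is maternally expressed in neurons (gene ID 7337, chromosome 15, 25333728 to 25439056), had 1 peak in all. It was absent with guide 1 and guide 2, and covered 627 bp with the control guide, at 25435036 to 25435662, 3.39 kb inside the outermost gene end at its start. Its score of 14 was above 7.56% of the control list. No list had a peak in the 85.7 kb of UBE3A that the antisense RNA SNHG14 also spans.

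Of the 4 windows, 2 held a peak with guide 1, 2 with guide 2 and 3 with the control guide, against 15.2%, 9.07% and 32.8% of the windows of all 19970 protein-coding genes. The covered length was at most 50% of the control in 3 with guide 1 and 3 with guide 2, namely KCNQ1, PLAGL1 and UBE3A, and higher in 1, BLCAP. Among protein-coding genes with a peak in such a window in either list, 76.3% were at most 50% of the control with guide 1 and 88.5% with guide 2, and 8.66% and 5.5% were at least 2-fold above it. For gene bodies alone the shares were 75.0% and 89.0% lower, and 9.53% and 5.49% higher. The 3 windows of lower coverage are thus near the background share. The 4 genes were named with earlier results of these lists known, so their counts support nothing by themselves.

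The imprinted domain of UBE3A, outside its window, held the longest covered stretch of any imprinted gene examined. SNHG14 (chromosome 15, 24823608 to 25419462) is the long RNA that starts near SNRPN on the paternal copy, hosts the small nucleolar RNA genes SNORD116 and SNORD115, and silences UBE3A in neurons. It had 30416 bp under 8 peaks with guide 1, 7854 bp under 9 peaks with guide 2 and 41843 bp under 8 peaks with the control guide. Guide 1 thus left 72.7% and guide 2 left 18.8%. With guide 1 the length at SNHG14 stayed below the control also at equal list sizes (78.7%), and over the 3 settings tried besides the reported one it ran from 78.7% to 88.5% with guide 1 and from 16.5% to 37.6% with guide 2, a check added after the data were seen.

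**Figure D4:**
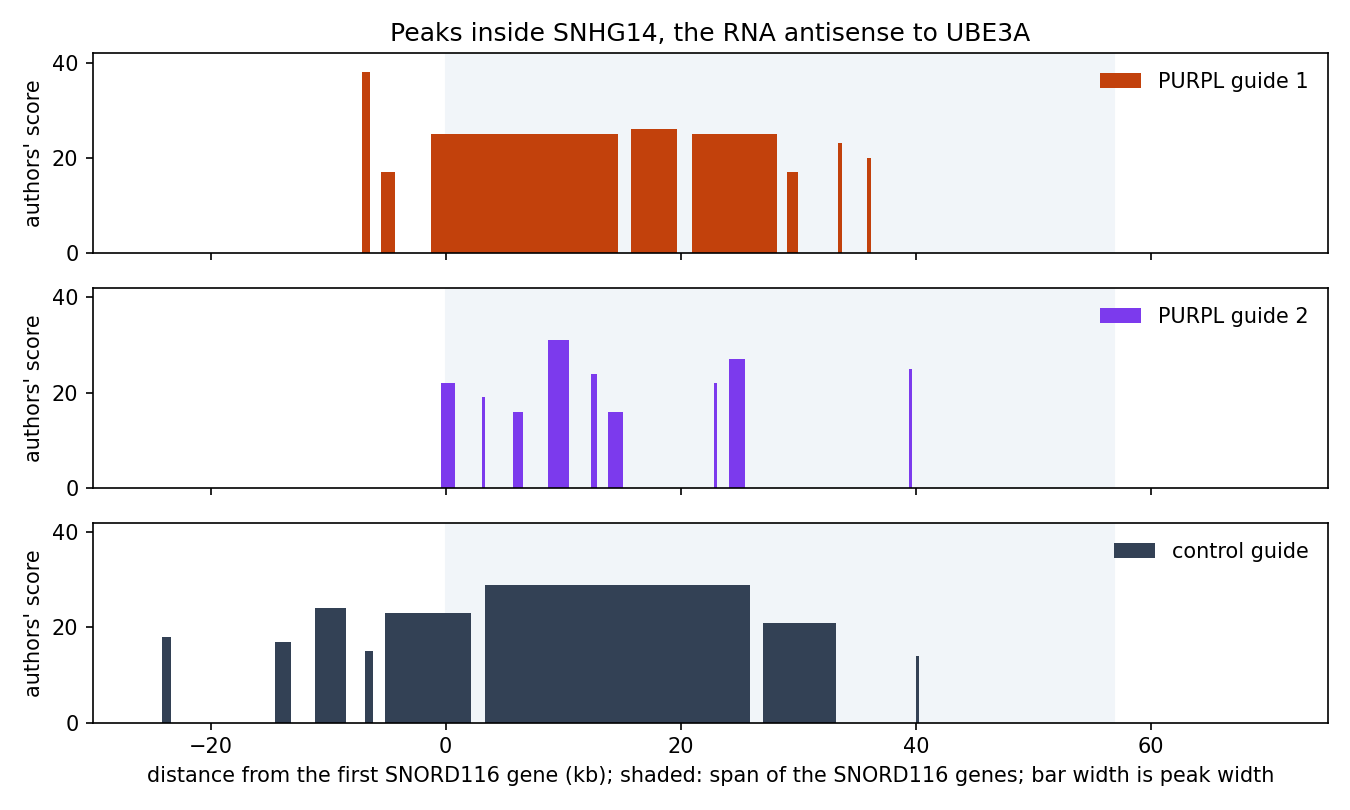
Each bar is a peak of SNHG14, with the authors' score as its height and the peak width as its width (at least a thin line); the horizontal axis is the distance in kb from the first SNORD116 gene and the span of the 30 SNORD116 genes is shaded. Guide 1 and the control guide have peaks of 15892 and 22535 bp over the first part of the array, where guide 2 has separate peaks of at most 1830 bp.

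Most of the covered length lay over the first part of the SNORD116 array, whose loss causes Prader-Willi syndrome. The array was singled out after its values were seen. It spans 56.9 kb, of which peaks covered 48.0% with guide 1, 13.1% with guide 2 and 54.8% with the control guide. The widest peak was 15892 bp with guide 1 (25050201 to 25066092), 1830 bp with guide 2 (25060154 to 25061983) and 22535 bp with the control guide (25054835 to 25077369). By width these peaks ranked 6 of 14087, 1925 of 11721 and 17 of 22627 in their lists. Of the 30 SNORD116 genes, 14 were under peaks with guide 1, 2 with guide 2 and 16 with the control guide. The 2 with guide 2 were SNORD116-1 and SNORD116-11, and both were under peaks in all 3 lists. The 8 guide 2 peaks from SNORD116-1 to SNORD116-11 all lay at least partly on guide 1 peaks, and 93.0% of the guide 2 bases of the array were also under control peaks.

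Copies of SNORD116 are alike in sequence, and how reads that fit several copies were placed is not given in the sources used here. Its part in these values was not tested. The related SNORD115 array of 48 genes, further along the same RNA, had 0 genes under peaks in all 3 lists. The part of SNHG14 below SNORD116 had 3137 bp with guide 1, 407 bp with guide 2 and 10670 bp with the control guide, 29.4% and 3.81% of the control. Inside the array itself the shares were 87.5% and 23.9%. The 3 control peaks furthest below the array, at 25027313 to 25028144, 25036914 to 25038323 and 25040354 to 25042968, had no guide 1 or guide 2 peak on them. The last control peak of SNHG14 ends 242 kb short of UBE3A.

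The paternally unmethylated control region of the domain, at a start shared by SNURF and SNRPN inside the annotated SNHG14, had no peak. It lies 96.5 kb below SNORD116, and the nearest peak was 89.4 kb away with guide 1, 96.1 kb with guide 2 and 72.3 kb with the control guide. Its 250 bases are shown for comparison with the PLAGL1 start (RefSeq, GRCh38.p14, chr15:24954737-24954986, plus strand, 5′ to 3′, capitals as above).

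SNURF and SNRPN start: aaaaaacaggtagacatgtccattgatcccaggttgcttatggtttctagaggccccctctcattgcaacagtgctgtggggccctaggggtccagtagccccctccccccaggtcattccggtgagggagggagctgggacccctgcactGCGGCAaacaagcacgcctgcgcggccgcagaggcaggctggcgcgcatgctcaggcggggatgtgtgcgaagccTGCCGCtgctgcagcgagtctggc

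This window also holds 2 matches, 1 on each strand, with 12 CG pairs. SNRPN, SNURF, MKRN3, MAGEL2, NDN, NPAP1, PWRN1, PWAR1 and ATP10A had 0 bases under peaks in their bodies in all 3 lists.

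Most imprinted genes had no peak in the body, as did most annotated genes. The imprinted list of 88 genes held the listed genes of the KCNQ1 and UBE3A domains and other genes reported as imprinted in some tissue. Whether each domain gene is itself imprinted was not checked. Of the 88, 13 had a peak in the body with guide 1 (14.8%), 7 with guide 2 (7.95%) and 18 with the control guide (20.5%). Over all annotated genes, which are shorter, the shares were 3.30%, 1.79% and 6.96%. For the 70 protein-coding genes of the list they were 15.7%, 7.14% and 21.4%, against 6.55%, 3.73% and 13.1% of all protein-coding genes. The median length was 32 kb over the 88 genes, against 5.59 kb over all annotated genes. It was 24.2 kb over all protein-coding genes, but the 88 include non-coding genes, and no median was taken over the 70 alone. Longer bodies have more room for a peak, and the part of length in these shares was not tested. In 68 of the 88, among them H19, IGF2, MEST, PEG3, GNAS, GRB10, DLK1 and PEG10, no list had a peak in the body. The same held for 54385 of all 59094 annotated genes and 17009 of the 19970 protein-coding genes. The order of the lists depends on their size: 11 genes had a peak with guide 1, 7 with guide 2 and 10 with the control guide at equal list sizes.

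Where imprinted genes had peaks, coverage was mostly shorter with the guides, in about the background share of genes with guide 1. Covered length was at most 50% of the control in 15 of the 20 genes with a peak in either list with guide 1 (75.0%, against 74.9% of all annotated genes with a peak) and in 18 of 18 with guide 2 (100%, against 89.0%). It was higher with guide 1 in 2, BLCAP and DLGAP2, where guide 1 had 259 bp and the control guide 0 (10.4% of all annotated genes were at least 2-fold above), and with guide 2 in 0 (5.58%). The joint length under peaks was 51.0 kb with guide 1, 11.3 kb with guide 2 and 98.0 kb with the control guide, 52.0% and 11.5% of the control. Over all annotated genes the joint length was 35.8% of the control with guide 1 and 14.1% with guide 2. Without KCNQ1, KCNQ1OT1 and SNHG14, that of the imprinted genes was 13 kb with guide 1, 1.96 kb with guide 2 and 38.8 kb with the control guide. These were 33.5% and 5.05% of the control. The median gene with a control peak had 19.8% of its control length left with guide 1 and 0% with guide 2, against 0% with both guides over all protein-coding genes.

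After SNHG14, KCNQ1 and KCNQ1OT1, the longest control coverage was in GLIS3, a transcription factor gene of pancreas and thyroid, which had 958 bp with guide 1, 903 bp with guide 2 and 7524 bp with the control guide. ZNF331, a zinc finger gene, had 4942 bp with guide 1, 595 bp with guide 2 and 6184 bp with the control guide, so guide 1 left 79.9%. RB1, the retinoblastoma tumour suppressor gene, had 1912, 237 and 4338 bp in the same lists. The guide 2 list had no peak in COPG2, KLF14, ZFAT and TRAPPC9. COPG2, a vesicle coat gene next to MEST, had 1022 bp with guide 1 and 4523 bp with the control guide. KLF14, a maternally expressed transcription factor gene of fat, had 900 bp with guide 1 and 2602 bp with the control guide. ZFAT had 817 bp with guide 1 and 4788 bp with the control guide, and TRAPPC9 976 and 3083 bp. MAGI2, a synaptic scaffold gene, had 869 bp with guide 1, 223 bp with guide 2 and 2255 bp with the control guide. The tumour-suppressing RNA gene MEG3 had 504 bp with the control guide, 0.288 kb from its innermost listed start, and 0 with both guides. HM13, HERC3 and PPP1R9A had 295 to 373 bp in their bodies with the control guide and 0 with both guides. With 50 kb added on each side, HM13 had 1820 bp with guide 1, 326 bp with guide 2 and 373 bp with the control guide. In the same lists and windows HERC3 had 1107, 0 and 1300 bp, and PPP1R9A had 0, 0 and 1950 bp.

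**Figure D5:**
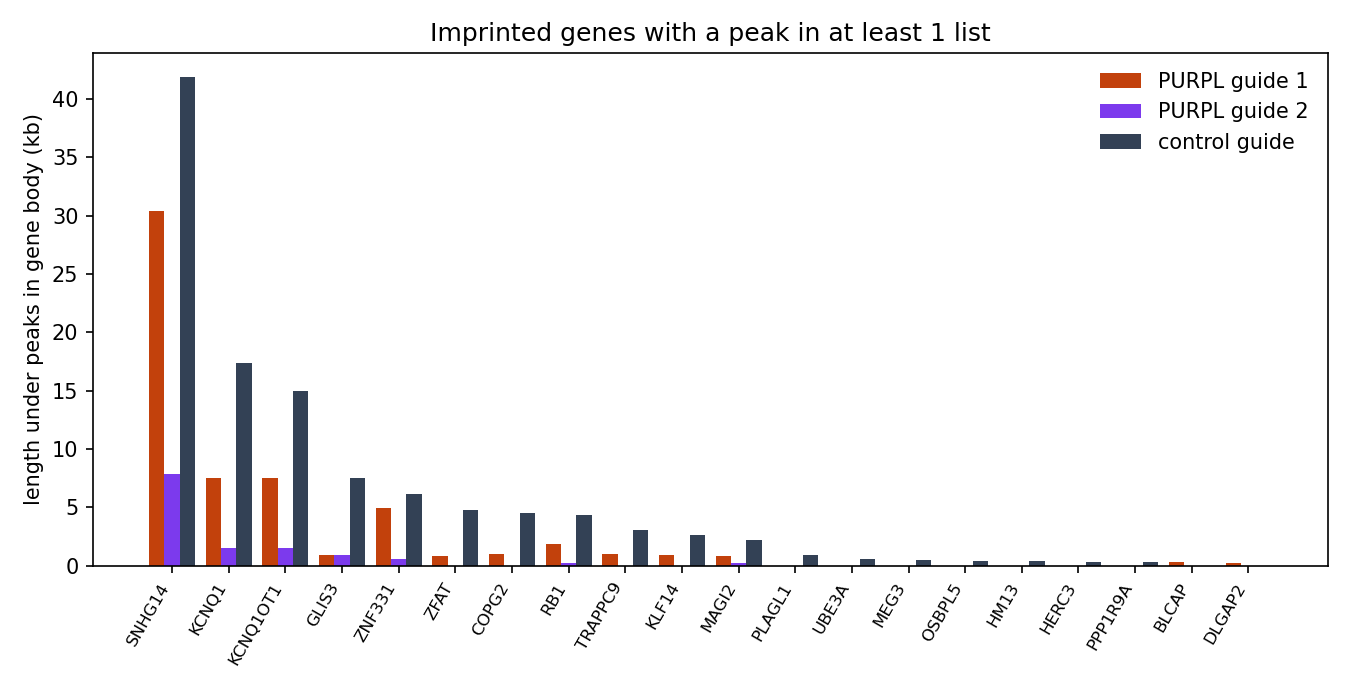
Length under peaks in the gene body in kb (vertical axis) for each of the 20 imprinted genes with a peak in at least 1 list, with a bar each for PURPL guide 1, PURPL guide 2 and the control guide. SNHG14 and the overlapping KCNQ1 and KCNQ1OT1 stand above the rest, and the guide 2 bar is the lowest or level with the lowest in all 20 genes.

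A list of 14 genes known to act on imprints held H3K9 methylation, DNA methylation and insulator factors. A peak lay in the body in 3 with guide 1 (21.4%), 0 with guide 2 (0%) and 4 with the control guide (28.6%), against 6.55%, 3.73% and 13.1% of all protein-coding genes. The 14 genes were longer, with a median of 46.5 kb against 24.2 kb. The part of length in these shares, which rest on few genes, was not tested. ZNF445 had 327 bp with guide 1, 0 bp with guide 2 and 882 bp with the control guide. EHMT1, an H3K9 methyltransferase gene, had 570, 0 and 602 bp in the same lists, SETDB1 had 232, 0 and 863 bp, and DNMT3A, a DNA methyltransferase gene, had 0, 0 and 316 bp. ZFP57, TRIM28, DNMT1, UHRF1, DNMT3B, DNMT3L, CTCF, DPPA3, EHMT2 and CBX5 had 0 in all 3 lists.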

How the data were processed

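H3K9me3 and input chromatin of the 3 BJ lines were sequenced, and 3 peak lists on hg38 were deposited by the authors, 1 per H3K9me3 library. The submitters' processing notes name the peak caller MACS2 (2.2.9.1), the aligner Bowtie2 (2.4.2), deepTools (3.5.1) and GATK. Peak settings, use of the input and depth are not stated there. The name of each deposited list sets its H3K9me3 library against the input of the same line. The deposited score is the authors' whole number for each peak. Names written in the peak lists show guide numbers that differ from the labels, and each list was assigned by its own name and the sample title.

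Peaks on chromosomes 1 to 22 and X were used. Gene positions and promoters came from RefSeq GRCh38.p14, without strand or exons for genes, so exonic or intronic places were not assigned. All 19970 protein-coding genes were scored together. Of the listed genes, 3 were matched by a synonym. The 4 members and the gene lists were chosen with earlier results of these data known. Named genes were the members, listed genes and the 5 nearest patterns; the SNORD116 array was chosen after its values were seen. Covered length is the number of bases under peaks, and peaks overlap from 1 bp. The interval code was tested on simulated lists. Analyses ran in Python (3.11.15) with matplotlib 3.10.9, scipy 1.17.1, pandas 2.3.3 and numpy 2.4.6. Some listed genes are not reported here.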

Additional observations from a re-analysis of the deposited data

How the results depend on the processing

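No paired analysis was possible because each group has 1 H3K9me3 library and no result comes from a test. With each list cut to its 11721 highest-scoring peaks (lowest score 16 with guide 1, 10 with guide 2 and 21 with the control guide; ties broken by position), the KCNQ1 length left turned from 43.4% to 176% with guide 1 and moved from 8.62% to 58.1% with guide 2, and the KCNQ1OT1 length left turned from 50.2% to 290% with guide 1 and moved from 9.98% to 95.9% with guide 2. Control scores below 21 drop out by construction. At scores of at least 22, KCNQ1 and KCNQ1OT1 kept 0% with guide 2. The share of control peaks of the KCNQ1 window overlapped was 0% in both guides at that score, 0% with guide 1 at equal list sizes, and 6.67% with guide 1 and 0% with guide 2 when 50% of the peak had to be covered. KCNQ1 stayed below the control with peaks within 5000 bp merged (50% and 15.3%). Adding 50 kb on each side of KCNQ1 could change nothing, since no list had a peak there. The number of the 4 windows with a peak was 1 with guide 1, 0 with guide 2 and 1 with the control guide at scores of at least 22, 1 with guide 1, 2 with guide 2 and 1 with the control guide at equal list sizes, and 1 with guide 2 for bodies alone. Imprinted genes marked were 10 with guide 1, 1 with guide 2 and 10 with the control guide at scores of at least 22, 11, 7 and 10 at equal list sizes, and 29, 18 and 46 with 50 kb added on each side. The cause of these moves was not tested. SNHG14 kept its direction in each setting. Shares resting on 3 to 15 peaks are imprecise whatever the depth.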
